A study of Rattus norvegicus with 10 samples.

Results

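The PPAR receptors, the PGC-1 coactivators, their receptor partners and 3 of their classic target genes were followed in rat left ventricle on day 3 after transfer of the GATA-4 gene or of LacZ. The set held 10 genes, Ppara, Ppard, Pparg, Ppargc1a, Ppargc1b, Esrra, Rxra, Pdk4, Ucp3 and Angptl4, out of 14217 genes named on the array. It was chosen by gene symbol, and every probe set naming 1 of these genes alone was read, 15 in all. Of these, 11 probe sets of 8 genes passed the filter on mean signal (a mean log2 value above 5.17) and were tested, while those of Ppara and Rxra and a dimmer one each of Ppard and Ppargc1a were too dim. None of the 11 changed in limma at an adjusted p of 0.05 (adjusted p from 0.162 to 0.842), where 5.30% of all 18625 probe sets tested did, and none of the 8 genes, each by its brightest probe set, where 6.37% of 10688 genes did. At an unadjusted p under 0.05 there were 2 of the 11 probe sets, both of Ppargc1a, and so 1 of the 8 genes, against 22.0% of all probe sets and 24.2% of all genes.

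The tested samples were 5 from male Sprague-Dawley rats of 250 to 300 g given GATA-4. Its protein binds DNA through zinc fingers and switches on cardiac genes. The controls were 5 from such rats given LacZ, which codes for a bacterial enzyme and serves as a neutral transgene. Total RNA of the left ventricle was labelled with biotin and hybridised to Affymetrix rat expression arrays, 1 array a sample. How the gene was carried in, where it was injected and how old the rats were are details the sources used here do not give, and each sample was a piece of ventricle with all its cell types. In such bulk samples fewer cells of a type and less RNA per cell cannot be told apart. The labels call them samples and do not name the animal, so the p-values measure the spread between these samples.

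PPAR alpha, delta and gamma are nuclear receptors that bind fatty acids and pair with retinoid X receptors on DNA. In heart muscle PPAR alpha and delta, with the coactivators PGC-1 alpha and PGC-1 beta and the estrogen-related receptor ERR alpha, drive genes of fatty acid uptake and oxidation and of the mitochondrion. Pdk4, Ucp3 and Angptl4 are targets that respond readily when fatty acids are plentiful, as in fasting. PDK4 inhibits pyruvate dehydrogenase and so spares glucose, UCP3 is a carrier of the inner mitochondrial membrane, and ANGPTL4 is a secreted inhibitor of lipoprotein lipase.

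The start regions of the members are given because receptors of these families act through short recognition elements. RefSeq windows of assembly GRCr8, from 250 bases before to 50 after a gene's start, were at hand for 9 of the 10 members in 10 windows, Pparg having more than 1. On both strands they were searched for AGGTCA, the core element of these receptors, for its direct repeat (AGGTCA, any base N, then AGGTCA again), for AAGGTCA, the core after an A as ERR alpha prefers it, which overlaps the first, for TGACGTCA, the cAMP response element, and for 4 forms of the GATA element, AGATAA and TGATAA, also with a final G in place of the last A. Of all 33469 windows 16.2% held AGGTCA, 0.0538% the direct repeat, 4.61% AAGGTCA, 1.83% TGACGTCA and 30.3% any GATA form. Matches were found in 2 members, and 8 of the 10 windows held none. The Ppargc1a window (chr14:63634058-63634357, plus strand) is shown since this gene had the smallest p of the set, with its TGACGTCA, at positions -181 to -174 from the start, in capitals. The Ucp3 window (chr1:164227660-164227959, plus strand) has AGGTCA in capitals, beginning at positions -155 and -50 from the start. That of Pdk4 (chr4:34568280-34568579, minus strand) held none and is shown since Pdk4 and Ucp3 were highest on the same arrays. A match is a stretch of letters and was not tested as a binding site.
Ppargc1a: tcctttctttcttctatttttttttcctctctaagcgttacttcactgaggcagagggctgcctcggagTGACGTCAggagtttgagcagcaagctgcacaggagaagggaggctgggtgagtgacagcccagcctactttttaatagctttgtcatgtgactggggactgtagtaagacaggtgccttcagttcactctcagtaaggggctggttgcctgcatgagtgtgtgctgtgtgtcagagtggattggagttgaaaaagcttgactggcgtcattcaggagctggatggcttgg
Ucp3: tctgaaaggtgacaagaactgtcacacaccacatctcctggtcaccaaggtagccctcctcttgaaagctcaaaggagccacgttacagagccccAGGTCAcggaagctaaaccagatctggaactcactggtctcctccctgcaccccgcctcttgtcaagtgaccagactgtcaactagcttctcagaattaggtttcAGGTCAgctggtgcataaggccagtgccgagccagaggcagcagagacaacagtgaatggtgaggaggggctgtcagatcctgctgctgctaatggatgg
Pdk4: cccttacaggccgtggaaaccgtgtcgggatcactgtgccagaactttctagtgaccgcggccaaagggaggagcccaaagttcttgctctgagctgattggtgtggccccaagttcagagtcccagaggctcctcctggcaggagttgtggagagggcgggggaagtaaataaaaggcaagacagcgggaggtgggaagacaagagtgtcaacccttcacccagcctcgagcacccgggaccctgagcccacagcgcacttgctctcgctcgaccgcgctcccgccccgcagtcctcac

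A few facts of the whole series bear on these genes. Gata4, read as a check of the labels, had log2 signals of 11.58, 11.28, 11.36, 11.59 and 11.42 on the GATA-4 arrays, all above the 10.49, 10.82, 10.63, 10.72 and 10.58 on the LacZ arrays (limma adjusted p = 0.00131). A second Gata4 probe set, too dim to be tested, read 4.41 to 6.21 with GATA-4 and 3.19 to 5.63 with LacZ, and there the groups overlapped (exact two-sided permutation p = 0.19). GATA-4 array 1 is called the dim array, as its trimmed mean signal was 143, whereas the 4 others of that group had 250.5 to 329.9 and the LacZ arrays 250.2 to 314.8. Results for the tested members are given with and without it. Over all probe sets 566 were higher (3.04%) and 422 lower (2.27%) with GATA-4, and the split was 322 higher and 401 lower when arrays were centred on their medians instead of quantile normalized. All 11 cardiomyocyte markers on the array passed the filter, with 1 of them, the titin gene Ttn, lower with GATA-4. Signals below are log2 values after quantile normalization, and differences are GATA-4 minus LacZ on that scale.

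**Figure D1:**
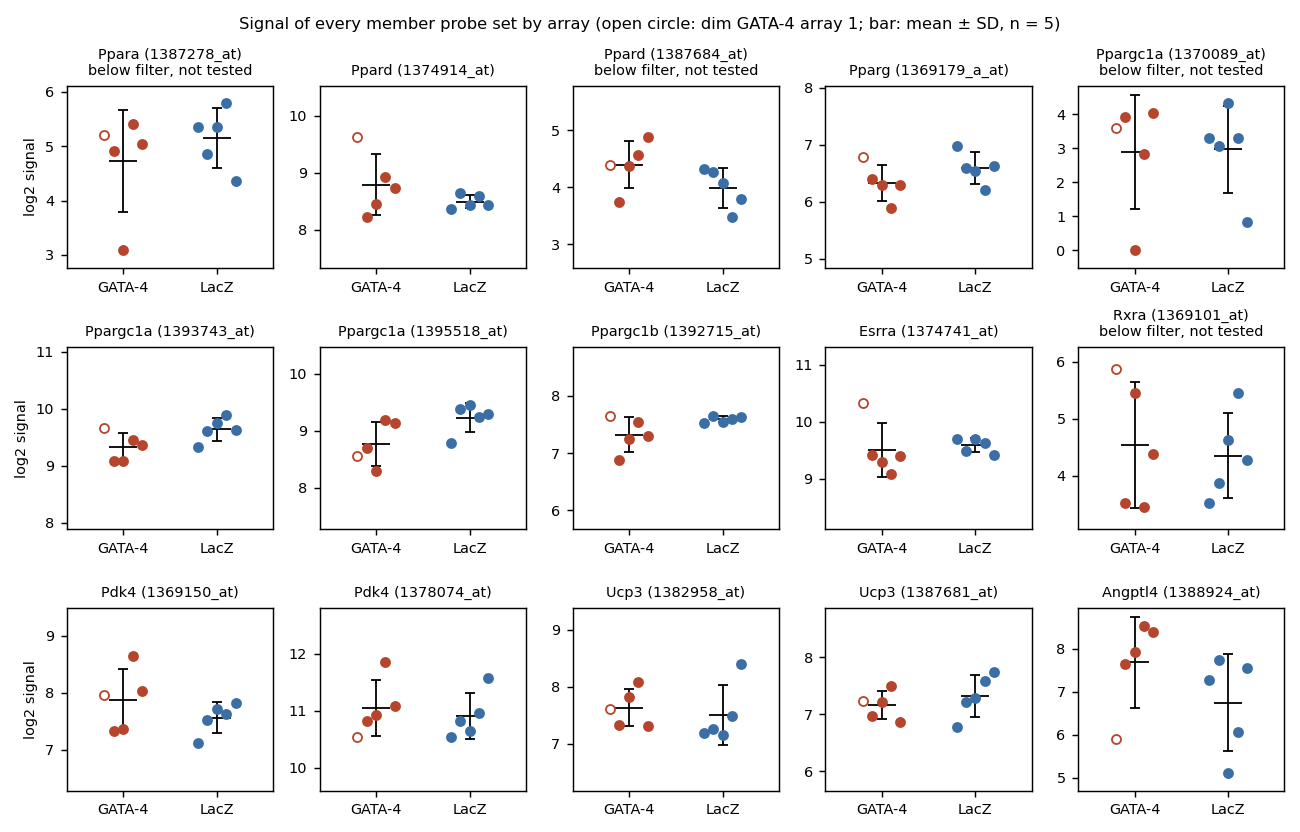
Log2 signal (vertical axes, each panel with its own range) of all 15 member probe sets on the 5 GATA-4 and 5 LacZ arrays. Points are arrays, the open circle is the dim array, GATA-4 array 1, and bars are the mean ± SD (n = 5). The groups overlap in every panel, and for Esrra the dim array, at 10.33, lies above all other arrays.

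PGC-1 alpha, encoded by Ppargc1a, is the coactivator that links these receptors to mitochondrial genes, and its transcript read lower with GATA-4 without passing the test. The brighter probe set read 9.66, 9.08, 9.09, 9.45 and 9.36 on GATA-4 arrays 1 to 5 and 9.33, 9.61, 9.75, 9.89 and 9.62 on LacZ arrays 1 to 5. GATA-4 arrays 2 and 3 lay below all LacZ arrays, and the groups overlapped because the dim array was high and LacZ array 1 low. The difference was -0.31 (SE 0.13, 95% interval -0.60 to -0.02), with an adjusted p of 0.191 in limma and an exact two-sided permutation p of 0.0873. A second probe set read 8.55, 8.70, 8.29, 9.19 and 9.14 with GATA-4, against 8.79, 9.38, 9.45, 9.24 and 9.30 with LacZ. Here the dim array was among the 3 GATA-4 arrays below all LacZ arrays, whereas on the brighter probe set it was the highest of its group. The difference was -0.45 (SE 0.18), adjusted p 0.162 in limma. Without the dim array the brighter probe set passed, at -0.40 (SE 0.12; limma adjusted p = 0.0386), where 15.3% of all probe sets passed, 7.86% higher and 7.44% lower, and 18.9% of all genes. The second, also at -0.40, did not pass (adjusted p = 0.163). Leaving out any 1 of the other 9 arrays gave no pass for the brighter probe set. It also passed when arrays were weighted by their quality (-0.34, adjusted p = 0.0451), where 15.5% of all probe sets did, and with median centring without the dim array (-0.43, adjusted p = 0.0183), where 14.0% did. The third Ppargc1a probe set was dim, at 2.88 ± 1.68 (SD) in the 5 GATA-4 samples and 2.98 ± 1.29 in the 5 LacZ samples, and was at the floor of 0 on GATA-4 array 3.

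PGC-1 beta, the related coactivator encoded by Ppargc1b, had the tightest LacZ group of the tested members. Its signals were 7.65, 6.87, 7.25, 7.55 and 7.30 with GATA-4, against 7.52, 7.65, 7.55, 7.60 and 7.63 with LacZ. GATA-4 arrays 2, 3 and 5 lay below every LacZ array, and the dim array lay level with the highest of them. The difference was -0.27 (SE 0.14, 95% interval -0.57 to 0.04) and did not pass limma (adjusted p = 0.285), nor did it without the dim array, at -0.35 (adjusted p = 0.0847).

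ERR alpha, encoded by Esrra, is an orphan receptor that PGC-1 coactivates. Esrra read 10.33, 9.41, 9.30, 9.09 and 9.40 on the GATA-4 arrays and 9.69, 9.49, 9.70, 9.63 and 9.42 on the LacZ arrays. The dim array stood above all others and the remaining 4 GATA-4 arrays stood below all LacZ arrays. With all arrays the difference was -0.08 (SE 0.19, 95% interval -0.49 to 0.33; limma adjusted p = 0.842), and without the dim array it was -0.29 (SE 0.09, 95% interval -0.49 to -0.08; adjusted p = 0.0552), so that neither passed. The sign turned on single arrays: without GATA-4 array 4 the difference was 0.02.

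Ppard encodes PPAR delta. It read 9.63, 8.23, 8.45, 8.93 and 8.74 with GATA-4, against 8.37, 8.65, 8.43, 8.60 and 8.44 with LacZ. The LacZ arrays lay close together and the GATA-4 arrays spread to both sides of them, with 3 above and 1 below. The difference of 0.30 (SE 0.21, 95% interval -0.15 to 0.75) did not pass limma (adjusted p = 0.43), and without the dim array it was 0.09 (adjusted p = 0.693). The dim second Ppard probe set read 3.75 to 4.89 with GATA-4 and 3.48 to 4.32 with LacZ (exact two-sided permutation p = 0.119). Pparg, the form best known from fat cells, read 5.89 to 6.78 with GATA-4 and 6.21 to 6.98 with LacZ, a difference of -0.26 (SE 0.18, 95% interval -0.65 to 0.14; limma adjusted p = 0.436), and -0.37 without the dim array (adjusted p = 0.157). Of the adipocyte markers on the array, 5 of 9 passed the filter and none changed in limma. Of the 5, 3 had an unadjusted p under 0.05, where 24.2% of all genes did. Without the dim array 2 of the 5 fell in limma, where 8.90% of all genes did. Adipoq, Plin1, Lep and Cidec were below the filter and none of the 9 was at the floor on every array. The summed normalized signal of the 9 was 6296 to 9206 with GATA-4 and 8620 to 9431 with LacZ, and the upper end with GATA-4 was 7591 without the dim array. The brightest of them were Slc2a4, Fabp4 and Plin4, with means of 11.68, 11.15 and 10.35 with GATA-4 and 11.99, 11.39 and 10.62 with LacZ. The sum therefore mostly followed these genes and was not read as an amount of fat cells. The part of fat cells in the Pparg signal was not tested.

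PPAR alpha, the main form of heart muscle, was read by 1 probe set that did not pass the filter. Ppara had signals of 5.21, 4.91, 3.08, 5.41 and 5.04 with GATA-4 and 5.36, 4.86, 5.35, 5.79 and 4.35 with LacZ. GATA-4 array 3 lay below all other arrays, 1.65 under its group's mean, and the other 4 GATA-4 arrays lay within the range of the LacZ arrays. The difference of means was -0.41 (exact two-sided permutation p = 0.516). The probe set of Rxra, the retinoid X receptor alpha that pairs with the PPARs, was dim as well, at 4.54 ± 1.10 (SD, n = 5) in GATA-4 samples and 4.36 ± 0.74 (SD, n = 5) in LacZ samples (exact two-sided permutation p = 0.778). At these signals a difference in either gene was measured with wide spread, and it was not read as an equal level.

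Angptl4 had the largest difference and the widest spread of the tested members. It read 5.91, 7.65, 7.93, 8.53 and 8.38 on GATA-4 arrays 1 to 5, against 7.27, 7.74, 5.11, 6.06 and 7.54 on LacZ arrays 1 to 5. GATA-4 arrays 3, 4 and 5 lay above all LacZ arrays, whereas the dim array lay with the low LacZ arrays 3 and 4. The difference was 0.94 (SE 0.55, 95% interval -0.24 to 2.12), or 1.92-fold, and did not pass (limma adjusted p = 0.339; exact two-sided permutation p = 0.198). Without the dim array it was 1.39 (SE 0.45; limma adjusted p = 0.0559), or 2.62-fold. It was 0.53 without LacZ array 3 (adjusted p = 0.62), and leaving out any single array gave values from 0.53 to 1.39, none past the threshold. With median centring and no dim array it passed, at 1.37 (adjusted p = 0.0427).

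Pdk4 was read by a pair of probe sets that were highest on the same array within each group. The brighter read 10.54, 10.81, 10.93, 11.85 and 11.08 with GATA-4 and 10.54, 10.81, 10.64, 10.96 and 11.58 with LacZ. Apart from GATA-4 array 4 and LacZ array 5 the groups covered nearly the same range. The difference was 0.14 (SE 0.23, 95% interval -0.36 to 0.64; limma adjusted p = 0.769), and without the dim array 0.26 (adjusted p = 0.458). It was -0.06 without GATA-4 array 4. The second probe set read 7.96, 7.34, 7.36, 8.65 and 8.04 with GATA-4, against 7.12, 7.52, 7.72, 7.63 and 7.83 with LacZ, a difference of 0.30 (SE 0.23; limma adjusted p = 0.47). For it, 3 GATA-4 arrays stood above all LacZ arrays, and the difference was 0.11 without GATA-4 array 4 and 0.28 without the dim array.

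Ucp3 gave differences of opposite sign on its probe sets, neither past the test. The brighter read 7.61, 7.34, 7.82, 8.09 and 7.32 with GATA-4 and 7.20, 7.27, 7.15, 7.49 and 8.41 with LacZ, a difference of 0.13 (SE 0.23, 95% interval -0.37 to 0.64; limma adjusted p = 0.785). LacZ array 5 stood above all other arrays, and without it the difference was 0.36 (adjusted p = 0.284). The second read 6.87 to 7.50 with GATA-4 and 6.78 to 7.74 with LacZ, a difference of -0.16 (SE 0.18; limma adjusted p = 0.643). The differences were 0.14 and -0.18 without the dim array.

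**Figure D2:**
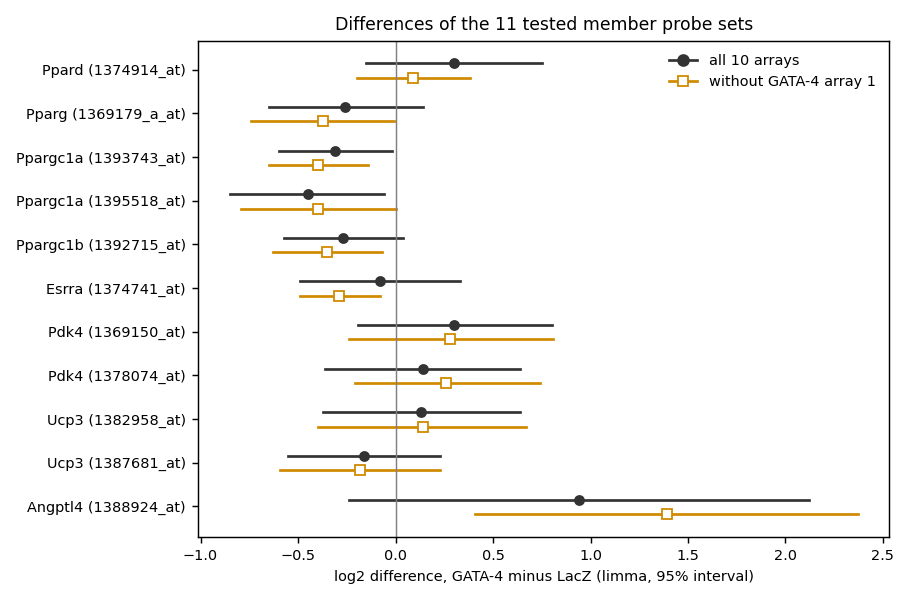
Difference between GATA-4 and LacZ for the 11 tested member probe sets in log2 units (horizontal axis), with limma's 95% interval, from all 10 arrays (filled circles) and without GATA-4 array 1 (open squares). The interval of the brighter Ppargc1a probe set, -0.60 to -0.02 with all arrays, is not adjusted for the number of probe sets tested, and Angptl4 has the widest interval, -0.24 to 2.12.

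Over the 8 tested genes, each by its brightest probe set, 4 differences were positive and 4 negative, with a median of 0.02 beside -0.017 over all 10688 genes tested. The negative ones were the coactivators, Esrra and Pparg, and the positive ones were Ppard and the 3 targets. In none of the 15 probe sets did the groups separate fully, while they did in 8.30% of all probe sets and 9.66% of all genes tested. The 95% intervals allowed changes of some size: 1.23-fold for Ppard had an interval of 0.899-fold to 1.68-fold, and for the brighter Pdk4 probe set, at 1.10-fold, it was 0.779-fold to 1.56-fold. Failing the test therefore did not show equal levels.

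The targets shared some of their highest arrays, and their order on the other arrays was shared in part. Both Pdk4 and both Ucp3 probe sets had their highest signal on the same array of each group, GATA-4 array 4 and LacZ array 5. On these arrays the brighter Pdk4 probe set lay 0.81 and 0.68 above its group's mean, and the brighter Ucp3 probe set 0.45 and 0.91. Angptl4 was highest on GATA-4 array 4 also, 0.85 above its group's mean, and on LacZ array 5 it was 0.80 above, next to LacZ array 2 at 0.99. The brighter Pdk4 probe set and Angptl4 ranked the GATA-4 arrays in the same order. In the LacZ group the brighter Pdk4 and Ucp3 probe sets were both next highest on arrays 4 and 2. Other pairs parted: on GATA-4 array 5 the brighter Ucp3 probe set lay at -0.32 and Angptl4 at 0.70. On LacZ array 1 the brighter Pdk4 probe set lay at -0.37 and Angptl4 at 0.52. Of the 6 tested regulator probe sets, those of Ppard, Pparg, Ppargc1b and Esrra and the brighter of Ppargc1a were highest on the dim array within the GATA-4 group, where 34.9% of all genes were. The second Ppargc1a probe set was highest on GATA-4 array 4, as was the untested one of Ppara, and none of the 6 was highest on LacZ array 5. Over the 32 tested genes of a list of other PPAR targets, 16 were highest on the dim array within the GATA-4 group (50%, against 34.9% of all genes) and 8 on GATA-4 array 4 (25%, against 12.2% of all genes). In the LacZ group 12 were highest on LacZ array 5 (37.5%, against 20.4% of all genes). This is a description of 10 samples, and what sets these arrays apart was not tested.

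**Figure D3:**
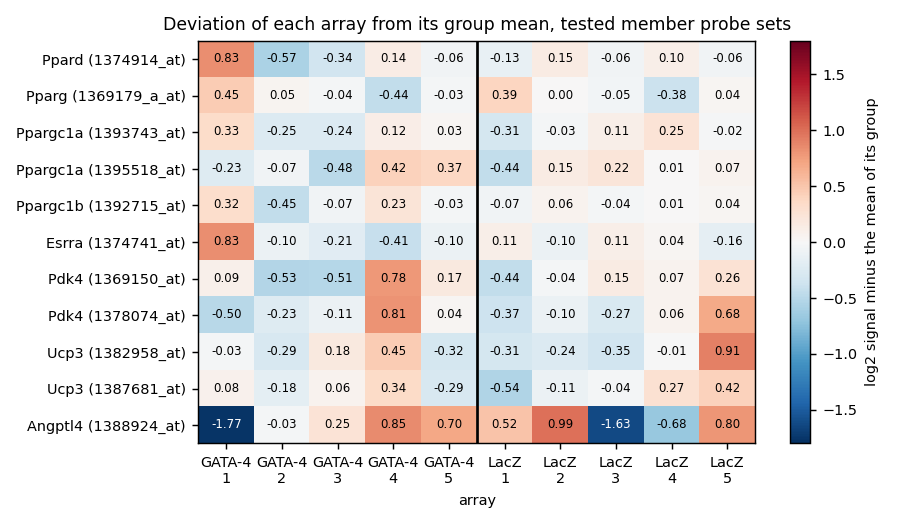
Log2 signal of each array minus the mean of its group (colour and printed values) for the 11 tested member probe sets, with GATA-4 arrays left of the line and LacZ arrays right of it. Pdk4 and Ucp3 are highest on GATA-4 array 4 and LacZ array 5, and the dim array is high for Ppard and Esrra, at 0.83 each, and low for Angptl4, at -1.77.

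The genes with the most similar patterns were found from the root mean square distance between log2 deviations from each gene's own mean over the 10 arrays. For Pdk4, whose own deviations had a root mean square of 0.412, the nearest were Spata13 at 0.198, Hivep2 at 0.244 and Aff1 at 0.245. None of these 3 changed (limma adjusted p from 0.506 to 0.762). For the dim Ppara signal, with a root mean square of 0.722, the nearest were Prrt4 at 0.392, Tmem82 at 0.40 and Rora, an orphan nuclear receptor, at 0.415, and none changed.

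Around the members, 5 lists of pathway genes were read, with 101 different genes tested. Of these 13 fell and 1 rose, beside 2.66% and 3.71% of all genes tested, and 78 differences were negative, with a median of -0.15. The lists were put together with earlier results of these data known, and so their counts are a description. The count of 14 changed genes moved with every array left out. Leaving out the dim array gave 36, of which 34 fell, where 8.90% of all genes fell and 9.97% rose, and the count was 7, 2, 6 and 3 without GATA-4 arrays 2 to 5, and 3, 6, 0, 2 and 1 without LacZ arrays 1 to 5.

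Other PPAR targets of fatty acid use fell in 5 of 32 tested genes and rose in none (median -0.17). Etfdh, which passes electrons from fatty acid oxidation to ubiquinone, fell by 0.31, Acot13, an acyl-CoA thioesterase, fell by 0.34, Slc25a20, the carnitine carrier, fell by 0.29, and Acsl1, which activates long-chain fatty acids, fell by 0.26 (limma adjusted p from 0.0174 to 0.0374). The fifth was Hadh, a dehydrogenase of beta-oxidation, which fell by 0.26 (adjusted p = 0.0463). A second Acsl1 probe set differed by -0.21 and did not pass (adjusted p = 0.332). When single arrays were left out, Etfdh missed the threshold in 2 of 10 fits, Acsl1 in 4, and Acot13, Slc25a20 and Hadh in 9 each. For Etfdh the signals were 11.68, 11.60, 11.53, 11.64 and 11.48 with GATA-4 and 11.85, 11.78, 11.94, 11.93 and 11.97 with LacZ, with no overlap. Among these genes, the largest difference was that of Plin5, a lipid droplet protein, -0.42 (SE 0.13), which did not pass (adjusted p = 0.0759). Cpt1a and Cpt1b, the carnitine palmitoyltransferases of the outer mitochondrial membrane and classic PPAR targets, were picked out after their values were seen, with differences of 0.01 and -0.14 (adjusted p = 0.984 and 0.271). Plin2, another lipid droplet protein under PPAR control and likewise picked out afterwards, was split between probe sets: the brighter showed 0.00 (SE 0.14; adjusted p = 0.994) and the other a rise of 0.62 (SE 0.12; adjusted p = 0.0137). Of the 32 genes, 13 fell and none rose when the dim array was left out.

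The mitochondrial targets and partners of PGC-1 and ERR fell in 2 of 28 tested genes and rose in 1 (median -0.16). Pprc1, the PGC-1-related coactivator, rose by 0.59 (SE 0.14; limma adjusted p = 0.0306), with signals of 7.63, 7.38, 7.74, 8.09 and 7.87 on the GATA-4 arrays, all above the 7.15, 7.37, 7.06, 7.19 and 7.01 on the LacZ arrays. It was the only member of the PGC-1 family to pass with all arrays, and it passed in 3 of the 10 fits with an array left out. Tfb2m, a mitochondrial transcription factor, fell by 0.34 and Mfn2, which fuses mitochondria, fell by 0.26 (adjusted p = 0.0374 and 0.0463). Both passed in 2 of those 10 fits. Leaving out the dim array, 10 of the 28 fell and 1 rose.

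Among 25 receptor partners and coregulators, 1 fell and none rose (median -0.05). That one was Rxrg, the retinoid X receptor gamma, a heterodimer partner of the PPARs. Its brighter probe set read 10.10, 10.04, 9.72, 9.79 and 9.71 with GATA-4 and 10.24, 10.20, 10.25, 10.51 and 10.30 with LacZ. All GATA-4 arrays lay below all LacZ arrays, and the difference was -0.43 (SE 0.10; limma adjusted p = 0.0314), or -0.48 without the dim array (adjusted p = 0.00453). With single arrays left out it passed in 3 of 10 fits, and a dimmer second probe set differed by -0.22 and did not pass (adjusted p = 0.489). The largest difference of this list was that of Nr2f1, an orphan receptor, -0.85 (SE 0.26; adjusted p = 0.0739).

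Pdk4 acts on the pyruvate dehydrogenase complex. Genes of that complex, its regulators and the mitochondrial pyruvate carrier fell in 5 of 12 tested and rose in none (median -0.25). Pdhb and Pdha1, subunits of its first enzyme, fell by 0.26 and by 0.16, Mpc1, a subunit of the mitochondrial pyruvate carrier, fell by 0.19 and the kinase Pdk1 fell by 0.35 (limma adjusted p from 0.022 to 0.0481). The fifth was Dld, the dehydrogenase that completes the complex, which fell by 0.28 (adjusted p = 0.0482). When single arrays were left out, Pdhb missed the threshold in 3 of 10 fits, Pdk1, Mpc1 and Dld in 8 each and Pdha1 in 9. Pdha1, Pdhb and Pdk1 each had GATA-4 arrays all below the LacZ arrays, at 12.70 to 12.86 against 12.96 to 12.97 for Pdha1. A dimmer Pdha1 probe set differed by -0.04 (adjusted p = 0.89) and a second Pdk1 probe set by -0.48 (adjusted p = 0.0719). Pdp2, a phosphatase that opposes the kinases, had the largest difference, -0.43 (SE 0.17; adjusted p = 0.16). With the dim array left out 7 fell and 1 rose.

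Lipoprotein lipase, which ANGPTL4 inhibits, and its partners gave no changed gene among 6 tested (median -0.08). At an unadjusted p under 0.05 there were 2, where 24.2% of all genes passed. The largest difference was that of Sel1l, an endoplasmic reticulum protein needed for the lipase to mature, 0.38 (SE 0.12; limma adjusted p = 0.075). Lpl itself, picked out after its values were seen, differed by -0.07 (SE 0.05; adjusted p = 0.483). Of the 6, 2 fell when the dim array was left out.

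**Figure D4:**
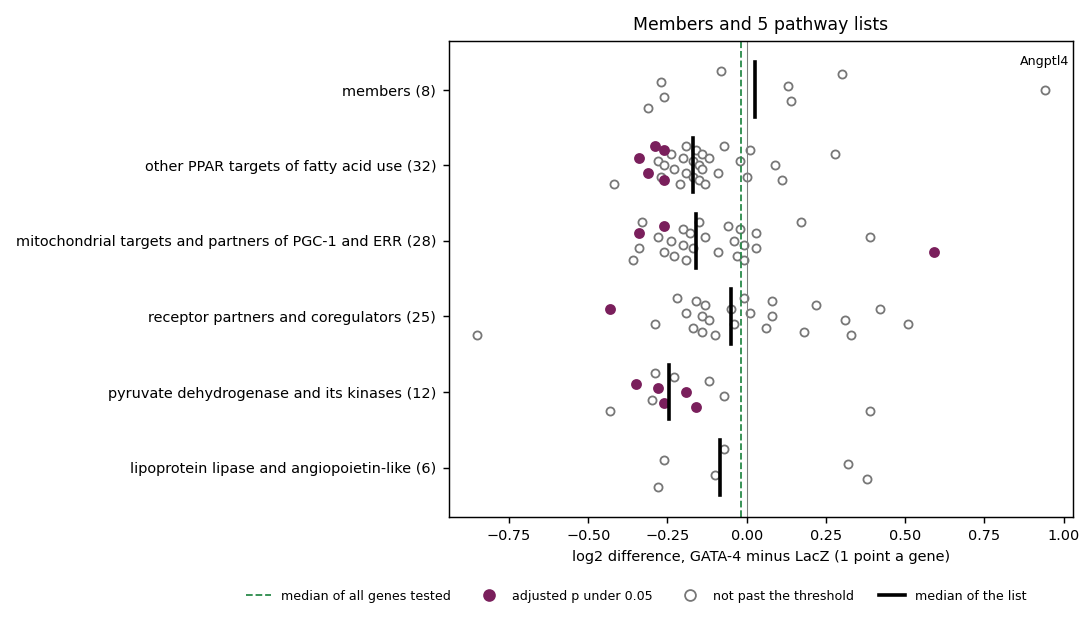
Log2 difference between GATA-4 and LacZ (horizontal axis) of each tested member gene and of the genes of the 5 pathway lists, 1 point a gene by its brightest probe set, with the number of genes in brackets. Filled points passed limma's adjusted p of 0.05, black bars are list medians, and the dashed line is the median of all genes tested, -0.017. No member is filled, while 13 pathway genes that fell and 1 that rose are.

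Beside these falls, markers of some other cells moved with the groups. Macrophage markers rose in 8 of 15, where 3.71% of all genes tested rose. Their summed normalized signal was 25970 to 32530 on the GATA-4 arrays and 19070 to 22370 on the LacZ arrays. Neutrophil markers rose in 3 of the 5 that passed the filter of 8 on the array, with sums of 2645 to 8445 on the GATA-4 arrays, the lowest being the dim array and the next 6410, and 1713 to 3206 on the LacZ arrays. Cardiomyocyte markers summed to 115200 to 117800 with GATA-4 and 117900 to 121900 with LacZ. Of 11 endothelial markers none changed and of 11 fibroblast markers 1 fell, and the sums of both lists overlapped between the groups. Without the dim array 3 endothelial markers fell, and of the fibroblast markers 2 rose and 1 fell, where 8.90% of all genes fell and 9.97% rose. The endothelial sum was then 8581 to 10020 with GATA-4, against 9769 to 10510 with LacZ. Of the 12 skeletal muscle markers on the array 7 were below the filter, and of the 5 that passed it 1 rose and 1 fell. That list summed to 24360 to 25980 with GATA-4 and 26720 to 27070 with LacZ. The brightest of its markers were Acta1, Ckm and Myh1, with means of 13.48, 12.88 and 12.38 with GATA-4 and 13.48, 12.97 and 12.75 with LacZ. The sum therefore mostly followed these genes and was not read as an amount of skeletal muscle. None of the markers of these lists was at the floor on every array. The part of the cell makeup in the pathway lists was not tested.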

How the data were processed

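Left ventricular RNA of 5 GATA-4 and 5 LacZ samples was measured on 1 array each, grouped by the source label. The authors deposited probe set intensities on a linear scale, for which the submitters' processing notes name GCOS, the scanner maker's software. The sources used here do not give its version, summary algorithm or scaling. The 31042 probe sets that are not controls took gene names from the platform annotation at GEO, and current RefSeq symbols (GRCr8) replaced old ones by gene ID. A single gene was named for 20826, several for 436 and none for 9780.

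Intensities were taken to log2, quantile normalized and floored at 0. Probe sets with a mean above the 40th percentile (18625) were fitted with limma 3.58.1 in R 4.3.3 (eBayes with trend, no covariates), two-sided, with Benjamini-Hochberg adjustment over all of them and a threshold of 0.05. Single values had exact permutation tests over 252 assignments, with 0.00794 the smallest p. The brightest probe set stood for its gene. The fit was checked on simulated data. The number of arrays limits the precision.

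The members and the 12 further gene lists were chosen with earlier results of these data known. Named were all members, of each pathway list the changed genes (at most 4, by p) and the gene with the largest difference, Gata4, and for Ppara and Pdk4 the 3 genes nearest in pattern. Outside this rule, Hadh and Dld complete the lists with 5 changed genes. Cpt1a, Cpt1b, Plin2, Lpl, the cardiomyocyte marker Ttn and the named adipocyte and skeletal muscle markers were picked after their values were seen.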

Additional observations from a re-analysis of the deposited data

Results flagged for a closer look

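In each group of 5 arrays the gap between the highest or lowest array and its neighbour was set against the group's range, for the 15 member probe sets and for the arrays' trimmed mean signal. Chance gives such a flag in about 5% of groups, and of 30 member groups 3 were marked. Ppara read 3.08 on GATA-4 array 3, with the nearest array at 4.91. Esrra read 10.33 on the dim array, with the nearest GATA-4 array at 9.41. Ucp3, by its brighter probe set, read 8.41 on LacZ array 5, with the nearest LacZ array at 7.49. The trimmed mean signal was 314.8 on LacZ array 2, with the nearest LacZ array at 264.27. The trimmed mean signal of the dim array, 142.98, was not flagged by this rule.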

How the results depend on the processing

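Of 208 differences of tested member probe sets under the alternatives, 199 kept their direction and their side of the threshold. The brighter Ppargc1a probe set passed at -0.40 without the dim array, in a range of -0.40 to -0.25 over the fits that left out an array, at -0.34 with array weights and at -0.43 with median centring without the dim array, a setting chosen after seeing the data, where Angptl4 passed at 1.37. Directions turned without GATA-4 arrays 4 and 5 for Esrra (0.10) and for Pdk4 (-0.14 and -0.01), and without GATA-4 array 4 for Esrra (0.02, in a range of -0.29 to 0.02) and the brighter Pdk4 probe set (-0.06, in a range of -0.06 to 0.31). Changed member probe sets, and likewise member genes, numbered 1 with array weights, 2 with median centring without the dim array and 0 to 1 when an array was left out. All changed probe sets, 988 as reported, numbered 9 in the values as deposited, 619 with no filter, 539 with no trend, 2890 with array weights, 201 without GATA-4 arrays 4 and 5, 2616 with median centring without the dim array, and 174 to 2849 when an array was left out. Changed pathway genes, 14 as reported of which 13 fell, numbered 0 in the values as deposited, 3 with no filter (3 fell), 1 with no trend (0 fell), 37 with array weights (34 fell), 1 without GATA-4 arrays 4 and 5 (1 fell), 47 with median centring without the dim array (45 fell), and 0 to 36 (0 to 34 fell) when an array was left out. Some settings had fewer arrays or more probe sets, and why these counts moved was not tested. With no filter all 15 member probe sets were tested, Ppara and Rxra included, and none passed. No paired analysis was possible because the labels give the groups no shared replicate numbers.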
